A study of Mus musculus with 8 samples.

Results

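Mitochondrial ribosomal protein genes were taken as every feature of the table whose whole name is Mrpl or Mrps followed by a number and at most 1 letter, which gave 76 of the 17091 features. Of these, 75 reached 10 in 2 or more of the 8 libraries and so were among the 12107 features tested. Mrpl23 was the member left out, with a value of 2 in WT normoxia replicate 1 and 1 in the other 7 libraries. Just inside the filter was Mrps36, at 14 and 4 in WT normoxia, 9 and 12 in WT hypoxia, 8 and 5 in KO normoxia, and 1 and 8 in KO hypoxia. The product of Mrps36 is now assigned to the 2-oxoglutarate dehydrogenase complex and not to the ribosome. The next lowest members, Mrps33 (25 to 49) and Mrpl27 (40 to 127), were well clear of the filter.

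The RNA came from immortalised mouse skin fibroblasts, cells adapted to continuous culture, on a C57BL/6 background. Cells called WT carry no stated allele, and cells called KO are labelled mir210lox/lox. A lox site marks DNA that Cre recombinase can remove; the labels name no Cre, so KO is only the submitters' name for these cells. Each genotype was kept for 24 hours at 21% oxygen (normoxia) or 1% oxygen (hypoxia), giving 4 groups of 2 libraries each, and the design asks how the response to low oxygen differs with the miR-210 locus. Nothing in the labels says that the 2 libraries of a group are separate cultures, or how many lines were made per genotype. A p-value here therefore measures spread among libraries that may be technical repeats.

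The mitochondrial ribosome translates the few proteins that mitochondrial DNA encodes, all of them subunits of the oxidative phosphorylation complexes. Its RNAs come from mitochondrial DNA, but its proteins are made from nuclear genes on cytosolic ribosomes and imported. A large subunit (Mrpl genes) forms peptide bonds and holds the exit tunnel, and a small subunit (mostly Mrps genes) reads the messenger RNA. Many of the proteins have homologues in bacterial ribosomes and the rest are particular to mitochondria. In low oxygen, HIF transcription factors are known to turn metabolism away from respiration, and miR-210, a HIF-induced microRNA, is known to repress respiratory chain and iron-sulfur cluster genes.

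Promoters of these genes are known for binding sites of ETS-family factors (NRF2/GABP among them), NRF1 and YY1, regulators of nuclear genes for mitochondria. The RefSeq promoter windows (GRCm38.p6, 250 bases before to 50 after the annotated start) were searched on both strands for CCGGAAG (ETS), CGCATGCG (the core of the NRF1 site) and AAGATGGCG (YY1). A window was found for 66 of the 75 members. The 5 stretches below, from 150 bases before to 30 after the start, are shown because they carry these words and because Mrpl33, Mrpl32, Mrps18a, Mrps27 and Mrps12 are described further on. Capitals mark the matches.
Mrpl33: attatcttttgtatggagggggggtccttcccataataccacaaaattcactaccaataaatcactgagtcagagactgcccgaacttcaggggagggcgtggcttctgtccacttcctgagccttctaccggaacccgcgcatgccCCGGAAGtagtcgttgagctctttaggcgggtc
Mrpl32: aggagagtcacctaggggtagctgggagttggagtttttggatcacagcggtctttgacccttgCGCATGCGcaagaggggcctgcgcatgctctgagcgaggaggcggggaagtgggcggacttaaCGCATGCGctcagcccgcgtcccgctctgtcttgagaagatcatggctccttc
Mrps18a: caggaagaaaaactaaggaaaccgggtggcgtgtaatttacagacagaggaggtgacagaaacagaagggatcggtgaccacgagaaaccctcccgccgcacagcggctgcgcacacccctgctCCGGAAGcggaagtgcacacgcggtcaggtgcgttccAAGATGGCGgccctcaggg
Mrps27: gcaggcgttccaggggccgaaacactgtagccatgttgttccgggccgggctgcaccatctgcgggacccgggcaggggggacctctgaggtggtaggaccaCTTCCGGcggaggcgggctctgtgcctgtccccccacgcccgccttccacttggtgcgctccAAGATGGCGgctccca
Mrps12: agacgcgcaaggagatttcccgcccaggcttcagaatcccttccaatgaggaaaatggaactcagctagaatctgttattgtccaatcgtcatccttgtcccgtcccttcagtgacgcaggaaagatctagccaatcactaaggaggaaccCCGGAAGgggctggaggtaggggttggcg

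These windows lie at chr5:31613801-31613980 (plus strand, Mrpl33), chr13:14613008-14613187 (minus strand, Mrpl32), chr17:46110854-46111033 (plus strand, Mrps18a), chr13:99344636-99344815 (plus strand, Mrps27) and chr7:28741792-28741971 (minus strand, Mrps12). Mrpl33 holds the ETS word across its start, Mrpl32 holds 2 NRF1 words upstream, and Mrps18a and Mrps27 hold an ETS word upstream and a YY1 word after the start. In Mrps27 the ETS word is on the opposite strand.

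Over the 300-base windows, the ETS word was in 24 of the 66 members (36.4%), in 20.6% of the 8792 tested features with a window and in 9.9% of all 27025 genes of the promoter table. The YY1 word was in 8 members, namely Mrpl35, Mrpl36, Mrpl37, Mrpl42, Mrps11, Mrps18a, Mrps24 and Mrps27 (12.1%, against 3.8% of tested features and 1.6% of all). The NRF1 word was in 7 members, Mrpl9, Mrpl10, Mrpl17, Mrpl22, Mrpl32, Mrpl39 and Mrps18b (10.6%, against 4.6% and 2.1%). Of these, 3 (Mrpl17, Mrpl22 and Mrps18b) also held the ETS word, and 32 of the 66 members held none of the 3 words.

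The GC box GGGCGG was less common in members, at 32 of 66 (48.5%) against 71.0% of tested features and 38.2% of all genes. The core HIF word ACGTG was in 16 members (24.2%), against 29.8% of tested features and 21.8% of all. The E-box CACGTG, which contains that core, was in 5 (7.6%, against 12.2% and 8.1%). A match describes letters in a window and not a bound site.

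Members lay on 17 chromosomes, with at most 10 on chromosome 11. For 29 of the 75 (38.7%) another gene started head to head within 1000 bases (overlaps of up to 500 bases included), against 21.8% of tested protein-coding features. Mrps12, the decoding-site protein S12, starts 172 bases from Sars2, the mitochondrial seryl-tRNA synthetase. Mrpl46 and Mrps11, both members, overlap at their starts by 412 bases. Mrpl36 is paired with Ndufs6, a complex I subunit, Mrps27 with Ptcd2, and Mrpl49 with Fau, which encodes a cytosolic ribosomal protein. An exon overlapped another gene in 25 members (33.3%, against 31.3% of tested protein-coding features), and their values are uncertain because the use of strand in counting is not given in the sources used here. Among them are Mrps6, which overlaps Slc5a3 on the same strand, and Mrpl43, which overlaps the helicase gene Twnk on the opposite strand. The same limit holds for Mrpl12, Mrpl13, Mrpl19, Mrpl27, Mrpl33, Mrpl48, Mrps7, Mrps18b, Mrps18c and Mrps27, which are described further on.

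The libraries, made with a small RNA kit for the SOLiD sequencer, held an estimated 6.25 M to 11.75 M assigned reads. Mir210 stood at 1, the lowest value of the table, in all 8 libraries, so it does not check the genotype labels. Of 8 HIF targets chosen as a check of the oxygen labels, 7 rose in WT and 7 in KO (adjusted p under 0.05 by limma). The medians of the 8 log2 fold changes were 3.46 and 3.13. Over all tested features, 13 (0.107%) passed in WT and 7 (0.0578%) in KO. The list was chosen with earlier results of these data known, so the check is not independent of them. All 11 fibroblast markers were expressed (sums of 87136 to 118310). Sums for the macrophage list were 11 to 33 (5 of its 8 genes in the table), for endothelium 13 to 48 (5 of 5) and for keratinocytes 26 to 64 (5 of 5, Krt5 at 1 throughout). The adipocyte list summed to 1 (1 of 4, Cidec), while the 1 muscle gene of 5 in the table read 401 to 977. Replicates correlated at Pearson's r of 0.954 to 0.985 across genes, which are not independent. Small RNA genes took 2.59% to 11.2% of the values.

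Levels between genes were compared as normalised reads per kilobase of transcript, using the GENCODE M21 transcript lengths (mean of the 8 libraries). Large-subunit genes held the 5 highest places. Mrpl33 led at 3044.8, followed by Mrpl20 at 1841.9, Mrpl52 at 1690.1, Mrpl13 at 1611.7 and Mrpl54 at 1256.0. At the other end were Mrps36 at 11.9, Mrps5 at 26, Mrps33 at 48.1, Mrps26 at 49.4 and Mrpl47 at 56.2. The proteins are present in the ribosome in equal numbers with the exception of the stalk protein Mrpl12. The values per kilobase of the 75 members had a median of 234.1 but spanned the whole of that range. Each length is a median over annotated transcripts, and Mrps5, Mrps26 and Mrpl47 have long ones (4481, 4278 and 3364 bases). By mean value Mrps26 ranked 58 and Mrpl47 64 among all members, so their low places depend on the length used.

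By subunit, the median per kilobase was 365.6 for the 28 large-subunit members with a bacterial homologue and 230.0 for the 20 other large-subunit members. It was 210.8 for the 16 small-subunit members with a bacterial homologue and 211.8 for the 10 others. Mrps36 was put in no class. Each of the 5 highest members overlapped the next one in its range over the 8 libraries. Such ranges do not compare neighbours within a library. Within each library Mrpl33 stood above Mrpl20 per kilobase, and Mrpl13 above Mrpl54. Among the 5 lowest the ranges overlapped for each neighbouring pair except Mrps5 and Mrps33, whose ranges lay apart.

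**Figure D1:**
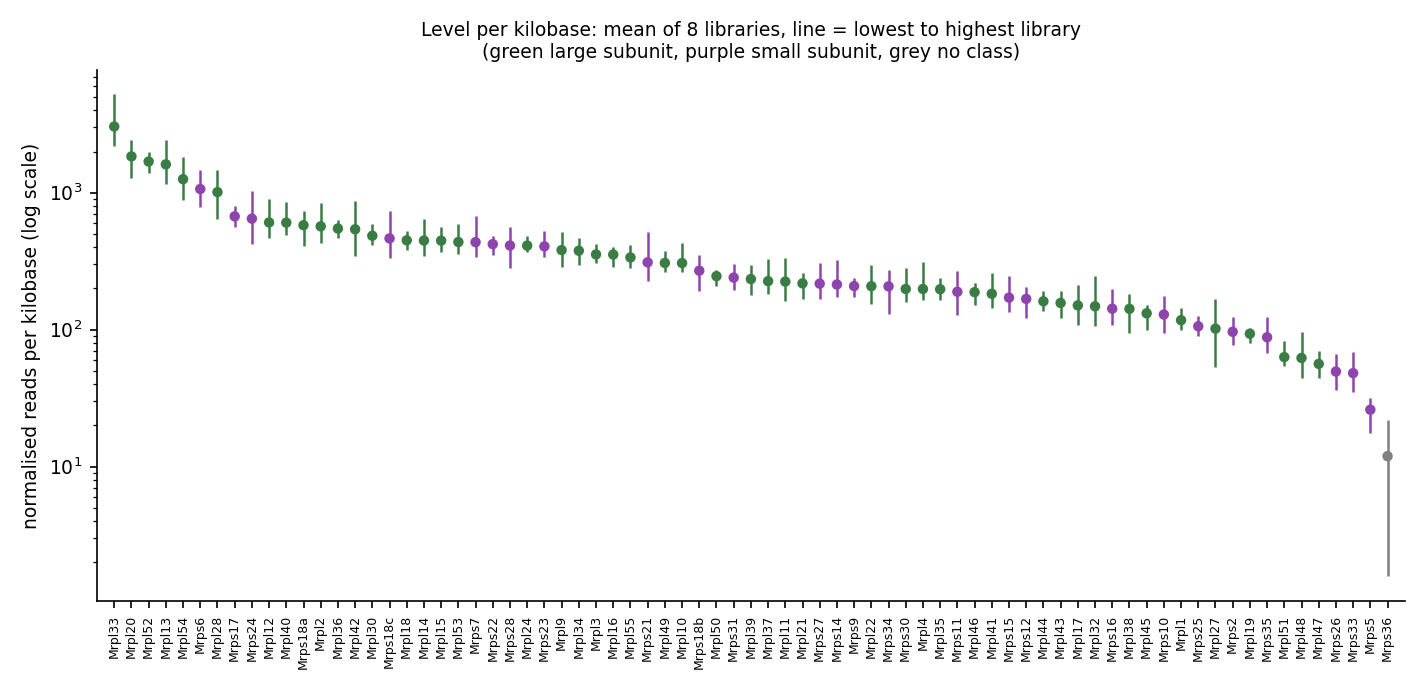
Normalised reads per kilobase of transcript (log scale) for the 75 members, ordered by the mean of the 8 libraries (points), with lines from the lowest to the highest library; green is the large subunit, purple the small subunit and grey Mrps36. Mrpl33 stands highest at 3044.8 and Mrps36 lowest at 11.9.

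The S18 set consists of 3 paralogues of the bacterial protein S18 that occupy different places: Mrps18c and Mrps18b at separate sites in the small subunit, and Mrps18a in the large subunit. Their levels per kilobase were 579.1 for Mrps18a, 463.6 for Mrps18c and 269.4 for Mrps18b. As read values, Mrps18a stood at 431 and 392 in WT normoxia, 531 and 450 in WT hypoxia, 551 and 411 in KO normoxia, and 413 and 307 in KO hypoxia. Mrps18b read 302 and 270, then 310 and 209, then 328 and 181, then 208 and 220 in the same order of groups. For neither did the 2 normoxia libraries of a genotype lie apart from its hypoxia libraries, except Mrps18a in WT, where both hypoxia values were the higher ones.

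For 59 of the 75 members the highest of the 8 libraries was less than 2-fold the lowest. Mean values ran from 7.6 to 1971.1 with a median of 365.8, and 72 of the 75 had a mean of at least 100. Members shared a library pattern: on log2(value + 1), relative to each gene's mean over the 8 libraries, their median was 0.05 and -0.14 in WT normoxia, 0.10 and 0.13 in WT hypoxia, 0.27 and -0.09 in KO normoxia, and -0.07 and -0.25 in KO hypoxia. KO normoxia replicate 1 or WT hypoxia replicate 2 was the highest library for 60 of the 75, and KO hypoxia replicate 2 or WT normoxia replicate 2 was the lowest for 52. Over all tested features, KO normoxia replicate 1 was highest for 22.1% and WT hypoxia replicate 2 for 20.8%, more than any other library. Those libraries were also the most often lowest, for 25.1% and 18.9%. KO hypoxia replicate 2 was lowest for 8.9% of all features and WT normoxia replicate 2 for 11.4%.

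Short features as a set shared most of the library pattern of the members. Members are short, with a median of 1223 bases against 2705 for tested features, and 51 of the 75 were in the shortest 25% of tested features (up to 1702.5 bases). Those 2984 features had medians of -0.04 and -0.10 in WT normoxia, 0.09 and 0.24 in WT hypoxia, 0.24 and -0.17 in KO normoxia, and -0.04 and -0.18 in KO hypoxia. The libraries above 0 and below 0 were the same as for the members, apart from WT normoxia replicate 1. Among the members themselves, the shortest, middle and longest 25 had medians of 0.31, 0.25 and 0.25 in KO normoxia replicate 1. They had -0.32, -0.24 and -0.22 in KO hypoxia replicate 2, and 0.46, -0.04 and 0.1 in WT hypoxia replicate 2. The 77 oxidative phosphorylation subunits and the 74 cytosolic ribosomal proteins tested were also highest in KO normoxia replicate 1 and WT hypoxia replicate 2. Their medians there were 0.38 and 0.40, then 0.37 and 0.49. The part of length in the results below was not tested beyond a fit with each library's length trend removed, whose values are given beside them.

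**Figure D2:**
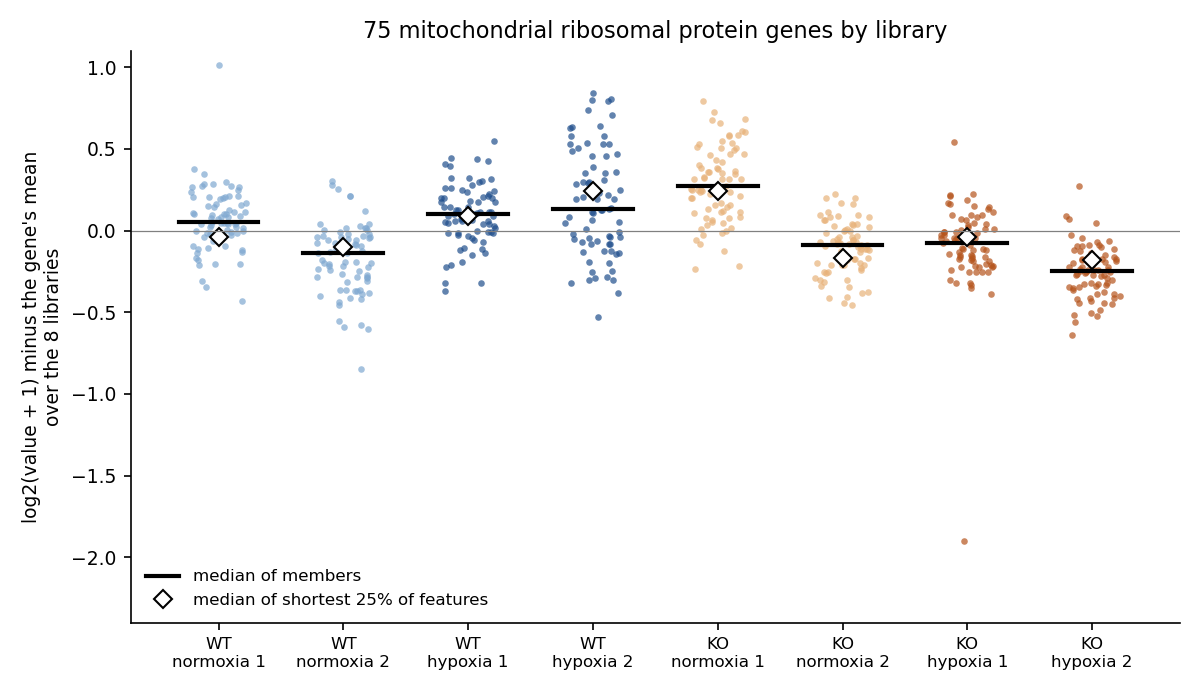
Each point is 1 of the 75 members in 1 library, as log2(value + 1) minus that gene's mean over the 8 libraries; black lines are the members' medians and diamonds the median of the shortest 25% of tested features. KO normoxia replicate 1 has the highest median, 0.27, and KO hypoxia replicate 2 the lowest, -0.25. The diamonds lie on the same side of 0 as the lines except in WT normoxia replicate 1.

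Hypoxia against normoxia in WT asks what low oxygen does in the cells labelled WT. No member passed limma's test at an adjusted p of 0.05, against 0.107% of all tested features (13, all higher). The members' median log2 fold change was 0.16 and that of all tested features -0.02, with 56 members above 0 (74.7%, against 47.8% of all features), and the range was -0.53 to 0.90. At an unadjusted p under 0.05 there were 4 higher members (4.37% of all features) and 1 lower (1.95%). Both hypoxia libraries lay above both normoxia libraries for 27 members (36.0%, against 18.9% of all features) and below for 5 (6.7%, against 19.9%). In these bulk samples, fewer cells of a kind and less RNA per cell cannot be told apart.

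Mrpl14 and Mrpl42 had the smallest p-values. Mrpl14, a large-subunit protein at the interface with the small subunit, read 249 and 225 in WT normoxia, 410 and 418 in WT hypoxia, 290 and 235 in KO normoxia, and 259 and 223 in KO hypoxia. Both WT hypoxia libraries were above the 6 others, which overlapped among themselves. The log2 fold change in WT was 0.80 ± 0.22 (SE), with an adjusted p of 0.678 by limma. Mrpl42, a protein with no bacterial homologue, read 337 and 227 in WT normoxia, 466 and 573 in WT hypoxia, 394 and 290 in KO normoxia, and 303 and 269 in KO hypoxia. Again the WT hypoxia libraries were the highest, and the fold change was 0.90 ± 0.27 (adjusted p = 0.721).

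Mrpl33, the member highest per kilobase, read 1098 and 1050 in WT normoxia, 1466 and 2500 in WT hypoxia, 1783 and 1133 in KO normoxia, and 1434 and 1179 in KO hypoxia. WT hypoxia replicate 2 stood far above its partner, and WT hypoxia did not separate from KO normoxia. The fold change in WT was 0.83 ± 0.31 (adjusted p = 0.767). Mrps18c read 278 and 222, then 329 and 468, then 359 and 240, then 258 and 212 in the same order, with a WT change of 0.66 ± 0.28 (adjusted p = 0.784). Mrps21, a small-subunit protein with a short transcript, had 0.71 ± 0.32 (adjusted p = 0.784).

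Mrps2, a small-subunit protein, was the lower member. It read 257 and 240 in WT normoxia, 183 and 160 in WT hypoxia, 194 and 227 in KO normoxia, and 170 and 173 in KO hypoxia. The WT change was -0.53 ± 0.23 (adjusted p = 0.784), and both oxygen levels separated in each genotype. Mrpl9, Mrps15, Mrps5 and Mrpl46 followed in order of p, with changes of -0.31, -0.26, -0.26 and -0.22, each about 1 SE in size or less apart from Mrpl9.

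By subunit class the WT medians were 0.11 and 0.26 for the large-subunit members with and without bacterial homologues, and 0.18 and 0.11 for the small-subunit ones, and the quartiles of all members were -0.01 and 0.37. The classes were not tested against each other. Length went with the change within the members, at r = -0.36 and rho = -0.36 across 75 genes that share the same libraries (r = -0.44 over 11935 tested features). The 25 shortest members (440.5 to 937 bases) had a median of 0.36, the 25 of 941 to 1537.5 bases 0.11 and the 25 of 1634.5 to 6073 bases 0.06. With each library's length trend removed the members' median was 0.05, with 40 above 0. Leaving out 1 library moved it to 0.02 (without WT normoxia replicate 2) or 0.27 (without WT normoxia replicate 1), and the shortest 25% of all features had a median of 0.22.

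**Figure D3:**
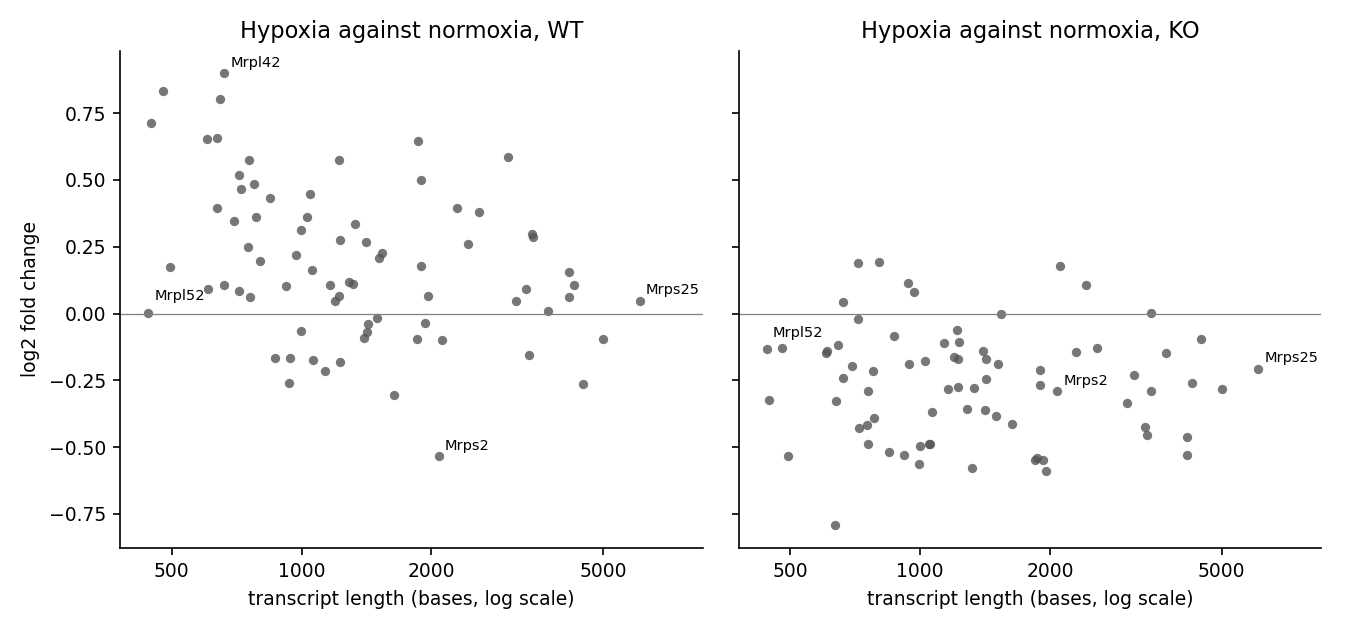
Log2 fold change of hypoxia against normoxia for the 75 members against transcript length in bases (log scale), in WT at left and KO at right. In WT the points above 0.6 are mostly short transcripts such as Mrpl42, and in KO the points lie mostly below 0 at all lengths.

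In KO the same question gave values mostly below 0. Again no member passed the test (0.0578% of all features did, 7, all higher), and the median was -0.26 against 0.01 for all features, with 8 members above 0 (51.1% of all features were) and 67 below. At an unadjusted p under 0.05 there were 3 lower members (0.909% of all features) and 0 higher (2.27%). KO hypoxia lay below KO normoxia in both libraries for 30 members (40.0%, against 16.3%) and above for 1, Mrpl36 (1.3%, against 15.9%).

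The members with the smallest p were Mrpl12, Mrpl20 and Mrps7. Mrpl12, the stalk protein that recruits translation factors, read 809 and 661 in WT normoxia, 815 and 765 in WT hypoxia, 1189 and 821 in KO normoxia, and 710 and 617 in KO hypoxia. The high value was that of KO normoxia replicate 1, and KO hypoxia overlapped WT normoxia. The KO change was -0.58 ± 0.24 (adjusted p = 0.916). Mrps7, a small-subunit head protein, read 896 and 718, then 891 and 790, then 1321 and 828, then 723 and 669, with -0.59 ± 0.26 (adjusted p = 0.916). Mrpl20 read 909 and 873, then 979 and 1031, then 1197 and 871, then 789 and 630, with -0.53 ± 0.23 (adjusted p = 0.916).

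Mrps27, a pentatricopeptide repeat protein of the small subunit, read 451 and 370 in WT normoxia, 426 and 343 in WT hypoxia, 568 and 397 in KO normoxia, and 339 and 311 in KO hypoxia, a KO change of -0.55 ± 0.25 (adjusted p = 0.916). Mrpl17 had -0.53 ± 0.25. Among members with a positive change, Mrpl36 had 0.19 ± 0.22 and Mrps12 0.19 ± 0.29, both within their error.

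This median moved with the KO normoxia libraries. Without its replicate 1 the median was -0.08 and 29 members were above 0. Without its replicate 2 the median was -0.46. Mrps7 then had -0.92 ± 0.21, Mrps24 -1.02 ± 0.24 and Mrpl2 -0.85 ± 0.20, members picked from that fit itself. That fit leaves 1 library in KO normoxia, which is assumed to vary like the other groups. The medians by subunit were -0.28 and -0.19 for the large-subunit classes with and without bacterial homologues and -0.31 and -0.23 for the small-subunit ones. Within the members the correlation with length was r = -0.04 (rho = -0.07, 75 genes), and the same 3 length groups had medians of -0.21, -0.25 and -0.28 from short to long. With the length trend removed the median was -0.21, with 13 members above 0, and the shortest 25% of all features had -0.13.

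**Figure D4:**
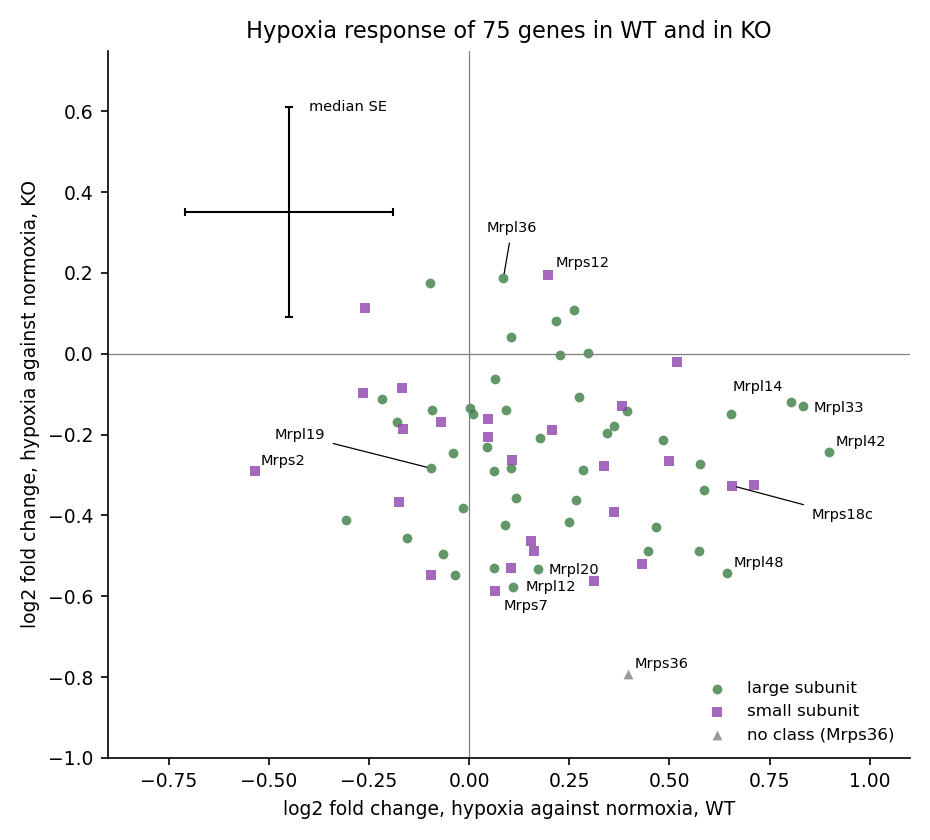
Log2 fold change of hypoxia against normoxia in KO (vertical) against WT (horizontal) for the 75 members, green circles for the large subunit, purple squares for the small subunit and a grey triangle for Mrps36; the cross shows the median SE of 0.26 in each direction. Most points (50) lie right of 0 and below 0, that is higher in WT and lower in KO hypoxia. The share of all features there was not counted.

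Taking signs alone, 50 members were above 0 in WT and below 0 in KO, 17 were below in both, 6 above in both and 2 below in WT and above in KO. These 2 comparisons share no library. The share of all features in each of these combinations of signs was not counted. Medians of opposite sign were also found in other sets. They were 0.35 in WT and -0.21 in KO for the oxidative phosphorylation subunits, and 0.44 and -0.19 for the cytosolic ribosomal proteins. The shortest 25% of all features had 0.22 and -0.13. The difference of the responses (KO minus WT) tests the gap directly. No member passed (0.0% of all features did), and the median was -0.45 against 0.01 for all features, with 8 members above 0 (51.1% of all features were). At an unadjusted p under 0.05 there were 11 lower members (1.95% of all features) and 0 higher (1.19%).

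Mrpl42 and Mrpl14, whose library values are given above, led with -1.14 ± 0.38 and -0.92 ± 0.32, each with an adjusted p of 0.857, as for the 9 others named here. Mrpl48, at 82 and 101 in WT normoxia, 118 and 173 in WT hypoxia, 178 and 96 in KO normoxia, and 87 and 92 in KO hypoxia, had -1.19 ± 0.48. In it KO normoxia replicate 1 and WT hypoxia replicate 2 stood above the other 6. Mrps18c had -0.98 ± 0.40 and Mrps6 -0.95 ± 0.39, and the other 6 were Mrpl22, Mrps28, Mrpl32, Mrps21, Mrpl13 and Mrpl33. Mrps15 had the smallest p among those above 0, at 0.37 ± 0.36.

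For the difference, the shortest 25% of all features had a median of -0.36, the oxidative phosphorylation subunits -0.60 and the cytosolic ribosomal proteins -0.68. The 3 length groups of members had -0.70, -0.38 and -0.39 from short to long, and the correlation with length was r = 0.26 (rho = 0.29, 75 genes, against r = 0.47 over all features). With the length trend removed the median was -0.29 and 20 members were above 0. Without KO normoxia replicate 1 it was -0.24, and without KO normoxia replicate 2 it was -0.70. With both WT hypoxia replicate 2 and KO normoxia replicate 1 left out, an alternative chosen after the data were seen, it was -0.20, with 15 members above 0 and 1 at an unadjusted p under 0.05.

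KO against WT in normoxia asks what the genotypes differ in at 21% oxygen. No member passed, nor did any other feature (0.0%). The members' median was 0.18 (all features -0.02) with 58 above 0 (47.6% of all features were). At an unadjusted p under 0.05 there was 1, Mrpl27, a protein near the peptidyl transferase centre, against 3.0% of all features. It read 63 and 40 in WT normoxia, 56 and 101 in WT hypoxia, 127 and 82 in KO normoxia, and 82 and 64 in KO hypoxia. Both KO normoxia libraries were above both WT normoxia libraries, and the change was 1.01 ± 0.38 (adjusted p = 1.0). Groups did not overlap for 10 higher members (13.3%, against 10%) and 2 lower (2.7%, against 11%). The median was -0.04, with 29 members above 0, without KO normoxia replicate 1, and 0.02 without WT normoxia replicate 2. With the length trend removed it was 0.09, with 52 members above 0, and the shortest 25% of all features had 0.09. At the next smallest p-values, Mrpl12 had 0.43 ± 0.24 and Mrps35 0.43 ± 0.25.

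In hypoxia, KO values were mostly below WT values. No member passed the test (0.0% of all features), the median was -0.27 (all features -0.01), and 12 members were above 0 (49.0% of all features were). At an unadjusted p under 0.05 there were 9 lower members (3.06% of all features) and 0 higher (4.45%). Both KO libraries lay below both WT libraries for 42 members (56.0%, against 24.5% of all features) and above for 3 (4.0%, against 26.2%). The median stayed between -0.34 and -0.20 when any 1 library was left out. It was -0.15 with the length trend removed, with 21 members above 0, and the shortest 25% of all features had -0.26. The oxidative phosphorylation subunits had a median of -0.38 (4 of 77 above 0) and the cytosolic ribosomal proteins -0.41 (6 of 74).

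Mrps28, a small-subunit protein related to bacterial S1, had the smallest p. It read 325 and 323 in WT normoxia, 393 and 441 in WT hypoxia, 351 and 272 in KO normoxia, and 252 and 220 in KO hypoxia. WT hypoxia held the 2 highest libraries and KO hypoxia the 2 lowest, and the change was -0.82 ± 0.23 (adjusted p = 0.641). Mrpl14 had -0.78 ± 0.22 and Mrpl42 -0.85 ± 0.27, each with an adjusted p of 0.641.

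Mrpl32, which the m-AAA protease must mature before it joins the ribosome, read 468 and 347 in WT normoxia, 493 and 743 in WT hypoxia, 502 and 350 in KO normoxia, and 343 and 321 in KO hypoxia. Again WT hypoxia replicate 2 was the highest library, KO hypoxia was below all others, and the change was -0.87 ± 0.28 (adjusted p = 0.641). Mrps18c had -0.74 ± 0.28, Mrps21 -0.84 ± 0.32 and Mrps6 -0.69 ± 0.28. Mrpl13 and Mrps34 completed the 9, with -0.66 ± 0.27 and -0.63 ± 0.28.

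Among the members above 0, Mrps15, a small-subunit protein, had the smallest p. It read 156 and 146 in WT normoxia, 126 and 126 in WT hypoxia, 170 and 177 in KO normoxia, and 230 and 153 in KO hypoxia. Both KO groups lay above WT hypoxia, and KO hypoxia replicate 2 overlapped WT normoxia. Its change in hypoxia was 0.57 ± 0.26 (adjusted p = 0.642).

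Pooled over both genotypes, hypoxia against normoxia had a members' median of -0.06 (all features 0.00), with 30 above 0 (50.4% of all features were), while 0.363% of all features passed the test (44, all higher) and no member did. At an unadjusted p under 0.05 there was 1 member, Mrps2 (-0.41 ± 0.16, adjusted p = 0.87), against 5.29% of all features. All 4 hypoxia libraries lay below all 4 normoxia libraries for Mrps2 and Mrpl19 (2.7%, against 1.65%) and above for 0 members (2.06%). Mrpl19 read 502 and 474 in WT normoxia, 460 and 453 in WT hypoxia, 514 and 497 in KO normoxia, and 432 and 399 in KO hypoxia. With the length trend removed the median was -0.10, with 25 members above 0, and the shortest 25% of all features had 0.06. These comparisons and the pooled genotype comparison reuse the libraries of the contrasts above.

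Pooled over both oxygen levels, KO against WT had a median of -0.07 (all features -0.01), with 23 members above 0 (47.8% of all features were). No member passed, against 0.0248% of all features. Mrps28 was the 1 member at an unadjusted p under 0.05 (-0.44 ± 0.16, adjusted p = 0.699), against 6.07% of all features. With the length trend removed the median was -0.04, with 32 members above 0, and the shortest 25% of all features had -0.08. For 0 members did all 4 KO libraries lie above (1.95% of all features) or below (1.7%) all 4 WT libraries.

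**Figure D5:**
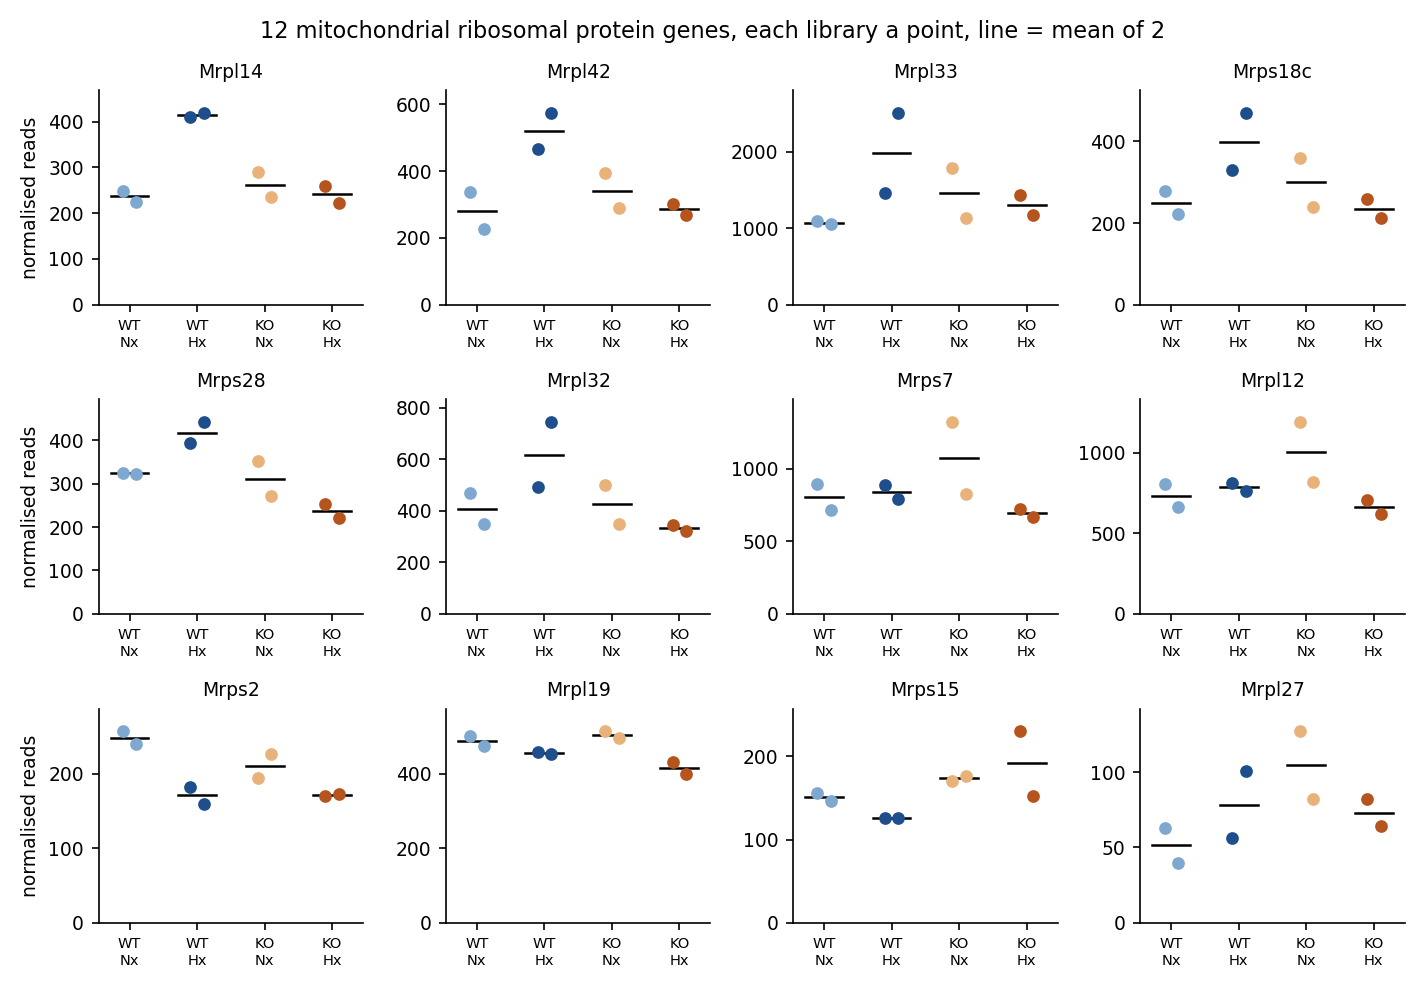
Normalised reads of 12 members in the 8 libraries, 1 point per library and a line at the mean of 2, for WT and KO in normoxia (Nx) and hypoxia (Hx), with each vertical axis starting at 0. In Mrpl14, Mrpl42 and Mrps28 the 2 highest libraries are those of WT hypoxia, in Mrps2 the hypoxia points lie below the normoxia points in both genotypes, and in Mrps7 and Mrpl12 the highest point is KO normoxia replicate 1.

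Other members with a known role were looked at whatever their change. Mrps12 read 120 and 158 in WT normoxia, 153 and 163 in WT hypoxia, 127 and 97 in KO normoxia, and 154 and 105 in KO hypoxia, with the oxygen levels overlapping in both genotypes. Mrpl3, near the peptidyl transferase centre, read 1196 and 966 in WT normoxia, 1151 and 1069 in WT hypoxia, 1316 and 1128 in KO normoxia, and 1097 and 981 in KO hypoxia. Mrpl44, which carries an RNase III-like fold, read 195 to 274 over the 8 libraries, and Mrpl45, at the membrane side of the exit tunnel, 240 to 370. Mrpl11, of the stalk base, read 490 and 389, then 490 and 370, then 645 and 389, then 377 and 311 in the order of groups above, with KO normoxia replicate 1 the highest. Mrps16 ran from 279 to 511, Mrps22 from 417 to 575 and Mrps34 from 119 to 251. None of these passed a test in any of the 7 comparisons.

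Among the rest of mitochondrial translation, the 7 ribosomal proteins with other names (Chchd1, Ptcd3, Aurkaip1, Ict1, Gadd45gip1, Dap3 and Mrp63) gave medians of 0.38 in WT hypoxia, -0.29 in KO hypoxia and -0.68 for the difference. Ict1, a peptidyl-tRNA hydrolase built into the large subunit, read 300 and 223 in WT normoxia, 350 and 347 in WT hypoxia, 423 and 305 in KO normoxia, and 269 and 218 in KO hypoxia, and its difference was -1.0 ± 0.36 (adjusted p = 0.857). Ptcd3, by contrast in direction, had a WT change of -0.26 ± 0.22.

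None of the 17 translation factors, 27 assembly factors, 22 mitochondrial aminoacyl-tRNA synthetases and related enzymes, 23 genes of mitochondrial DNA and RNA handling and 11 regulators passed the test in any comparison. Their WT hypoxia medians were -0.14, -0.05, -0.05, -0.15 and -0.13, and their KO hypoxia medians -0.15, -0.26, -0.15, -0.16 and 0.36. Relative to each gene's mean, the 11 regulators had medians of -0.37 and 0.21 in KO normoxia and 0.27 and 0.24 in KO hypoxia. Only KO normoxia replicate 1 was low among these, so the 0.36 rests on 1 library. Slirp, which with Lrpprc stabilises mitochondrial messenger RNAs, read 357 and 353 in WT normoxia, 598 and 722 in WT hypoxia, 520 and 317 in KO normoxia, and 396 and 374 in KO hypoxia. Its WT change was 0.89 ± 0.26 (adjusted p = 0.705), while that of Lrpprc was -0.54 ± 0.32.

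Elac2, which cuts the 3′ end of mitochondrial transfer RNAs, read 565 and 476, then 380 and 263, then 556 and 451, then 345 and 400 in the same order. All hypoxia libraries were below all normoxia libraries, and the pooled change was -0.57 ± 0.18 (adjusted p = 0.695). Mxi1, a HIF-induced antagonist of Myc, read 99 and 96, then 132 and 187, then 90 and 107, then 222 and 191. All hypoxia libraries were above all normoxia libraries, and the pooled change was 0.87 ± 0.19 (adjusted p = 0.153).

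The seed of miR-210-3p was looked for in the members' 3′ UTRs, since microRNA target sites usually pair with it. The mature sequence from RefSeq is shown with its seed, bases 2 to 8, in capitals.
miR-210-3p: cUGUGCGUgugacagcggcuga

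The matching letters ACGCACA were in the longest annotated 3′ UTR of 0 of the 75 members, against 426 of 11444 tested features with a coding transcript (3.7%). Members' 3′ UTRs are short, at a median of 329 bases against 1219. No match says only that these 7 letters are not in these windows.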

How the data were processed

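Each deposited value is a score, a read count normalised by the authors according to the table's name, in whole numbers of at least 1. For the aligner, genome build, counting and normalization: not given in the sources used here. A miRNeasy kit was used to extract total RNA, per the labels' protocols. Depth was estimated from the spacing of low values (1 read was worth 0.674 to 1.384), and with whole reads not recovered no count test was run. A limma-trend model (limma 3.58.1, R 4.3.3) of the 4 groups, without a replicate term, was fitted to log2(value + 1) of the 12107 features with at least 10 in at least 2 libraries. The test was also run on simulated data drawn independently per gene, with no length shift between libraries, so that run does not bear on such shifts. P-values are two-sided, Benjamini-Hochberg adjusted over the features tested, and called at 0.05; fold changes understate those of low genes. Lengths and neighbours came from GENCODE M21 (98.6% of tested features matched). Alternatives were pseudocounts of 0.5 and 8, no filter, a filter of 50 in 4 libraries, quantile and trimmed-mean (TMM) scaling, limma without the trend, a replicate block, each library left out, and length trends removed. Members named are the 5 per direction with the smallest p, those whose 4 hypoxia or 4 KO libraries do not overlap the others, the extremes of level, the S18 set, those at the filter and those with known roles; of these the text prints the values that matter. Members and lists were chosen with earlier results of these data known. The result of 1 marker list is not reported here.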

Additional observations from a re-analysis of the deposited data

How the results depend on the processing

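Over 18 alternatives, the 31 tested results for named members kept their direction, and their call was unchanged in 557 of 558 refits. The other was Mrps7 in KO without KO normoxia replicate 2, at -0.92. These 31 were picked for an unadjusted p under 0.05 by limma in the main fit, which favours a kept direction. None passed the adjusted threshold there, so an unchanged call means only that they stayed uncalled. Sizes moved, with Mrpl33 in WT from 0.39 to 1.22 and Mrps7 in KO from -0.92 to -0.25. No member was called in the refits that kept KO normoxia replicate 2. The members' median log2 fold change moved by more than the spread between replicates (0.16) in these cases. For hypoxia in KO it was -0.08 without KO normoxia replicate 1 and also with WT hypoxia replicate 2 left out as well, and -0.46 without KO normoxia replicate 2, with 0 to 3 members called over the fits that left out 1 library. For KO against WT in normoxia leaving out 1 library gave -0.04 to 0.32, and -0.04 without both libraries. For the difference, leaving out 1 library gave -0.70 to -0.24, the length trend removed gave -0.29, and without both libraries it was -0.20. The pooled hypoxia median was -0.13 to 0.05 and the pooled KO median -0.17 to 0.02 over the same fits, so their sign is not settled. Without a filter 28, 5, 19, 14, 29, 45 and 30 of all features were called (WT and KO hypoxia, KO against WT in normoxia and hypoxia, difference, pooled hypoxia, pooled KO), none of them members. Without limma's trend the pooled hypoxia count was 21 in place of 44, and with the length trend removed the KO hypoxia count was 11 in place of 7. The pooled KO count, 3, was 0 and 5 in these fits. Replicate numbers pair no samples by the labels. Deviations of same-numbered libraries correlated at 0.57 (WT normoxia and hypoxia) down to -0.11 (WT hypoxia and KO normoxia), and with a replicate block 0 members were called in each comparison, with 19 features for WT hypoxia, 9 for KO and 56 pooled. Values near 10 rest on about 10 reads, which limits the precision of Mrps36.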
